A study of Mus musculus with 3 samples.

Results

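Genes of the interleukin-2 and interleukin-15 signalling pathway were examined in 3 populations of mouse CD8+ T cells. They were chosen by gene symbol: the receptor chains Il2rb and Il15ra, the kinase gene Jak1, the transcription factor genes Stat5a and Stat5b and the feedback genes Cish and Socs2. All 7 genes had a value, among 10191 genes in all, and each was read by 1 probe set that the platform annotation pairs with 1 gene symbol. The CD8+ populations, sorted from spleen and lymph nodes, were an innate one with CXCR3 (CXCR3+ innate), an innate one without it (CXCR3- innate) and naive cells, with 1 Affymetrix array for each. All mice were C57BL/6 with a GFP reporter for the chemokine receptor CXCR3, so the naive cells carry it too. The labels call the animals naive, name no treatment and state that they were free of pathogens. Their age is not given in the sources used here. Cells were stained for CD44, CD62L and CD8 and sorted, and RNA was prepared from the cells of about 3 to 5 animals. Whether the cells of these animals were pooled for an array is not stated in the sources used here. The word innate is taken from the labels, and the gates that define it are not given in the sources used here.

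Interleukin-2 and interleukin-15 are cytokines that keep T cells alive and make them divide. Both signal through the beta chain encoded by Il2rb, together with the common gamma chain. Interleukin-15 is largely presented on the alpha chain encoded by Il15ra, which neighbouring cells can offer in trans. JAK1 binds the beta chain and JAK3 the gamma chain, and both activate STAT5A and STAT5B, which then induce genes such as Cish and Socs2 whose products damp the signal. Memory-phenotype CD8+ T cells are known for a high density of the beta chain, CD122, and for their dependence on interleukin-15.

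Values were log2 RMA values. With 1 array per population there was no spread between replicates, so no test, standard error or p-value could be computed, and higher and lower refer to these 3 arrays. A gene was called where the log2 difference reached 1 (2-fold) in either direction, provided that the larger of its values was no lower than the median gene of that array. Exactly equal values were frequent: 34.6% of all genes had 1 value on all 3 arrays. Among the 1644 genes with a highest value below 7.2 the share was 52.2%, and among the 293 genes reaching at least 10 it was 1.71%. An equal value therefore does not show equal expression. Levels of different probe sets are not comparable, and the summed linear levels given for marker lists serve to set arrays, not genes, side by side.

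Il2rb stood apart from the other 6 genes: it was about 2-fold higher in CXCR3+ innate cells than in either other population, which had nearly the same value. The log2 value of Il2rb was 10.85 on the CXCR3+ innate array, 9.86 on the CXCR3- innate array and 9.85 on the naive array. The CXCR3+ innate array was the high one. The difference was 1.003 for CXCR3+ innate minus naive, just over 2-fold, and Il2rb ranked at 15 of 10191 genes. For CXCR3+ innate minus CXCR3- innate it was 0.995, or 1.99-fold, at rank 17. For CXCR3- innate minus naive it was 0.01, and 20.6% of genes were at least as high. In bulk RNA, fewer cells with a transcript and less of it per cell cannot be told apart.

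Il2rb was the single member called in the first comparison. There, 1 of the 7 genes was called higher and 0 lower, where 0.137% of all genes were called higher and 0.0981% lower. In CXCR3- innate minus naive no member was called in either direction, against 0.0196% of genes higher and 0.226% lower. No member was called in CXCR3+ innate minus CXCR3- innate either, where 0.147% of genes were higher and 0.00981% lower. With so few calls among all genes, 0 of 7 is what the background gives and is no result about these genes. The Il2rb calls rest on a narrow margin: the same gene falls just inside the 2-fold limit against naive cells and just outside it against CXCR3- innate cells. When 16 was added to the linear values before taking log2, Il2rb differed by 0.991 from naive cells and was not called. The plot of Il2rb under each scaling shows that the difference of CXCR3+ innate cells stayed near 2-fold.

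**Figure D1:**
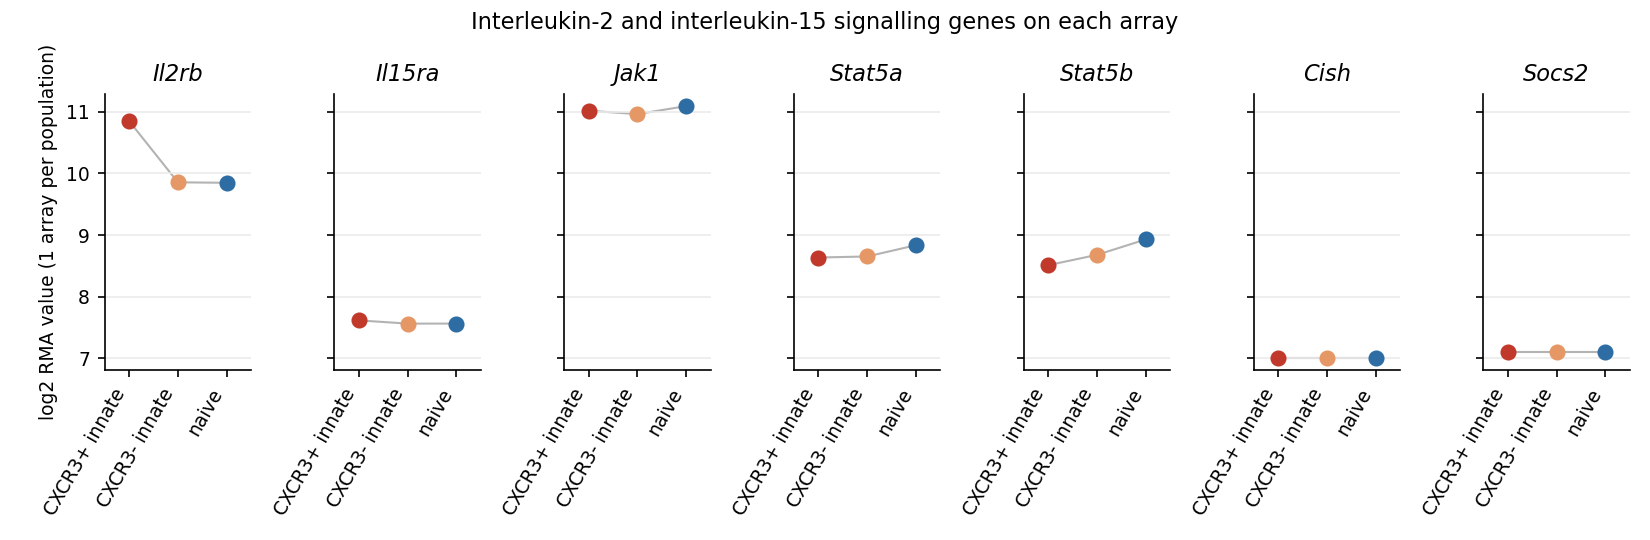
Log2 RMA value (y axis) of each of the 7 genes in each CD8+ T cell population (x axis). Each point is 1 array, so there are no error bars, and levels of different genes are not comparable. Il2rb is high in CXCR3+ innate cells at 10.85, while Cish and Socs2 have 1 value throughout.

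**Figure D2:**
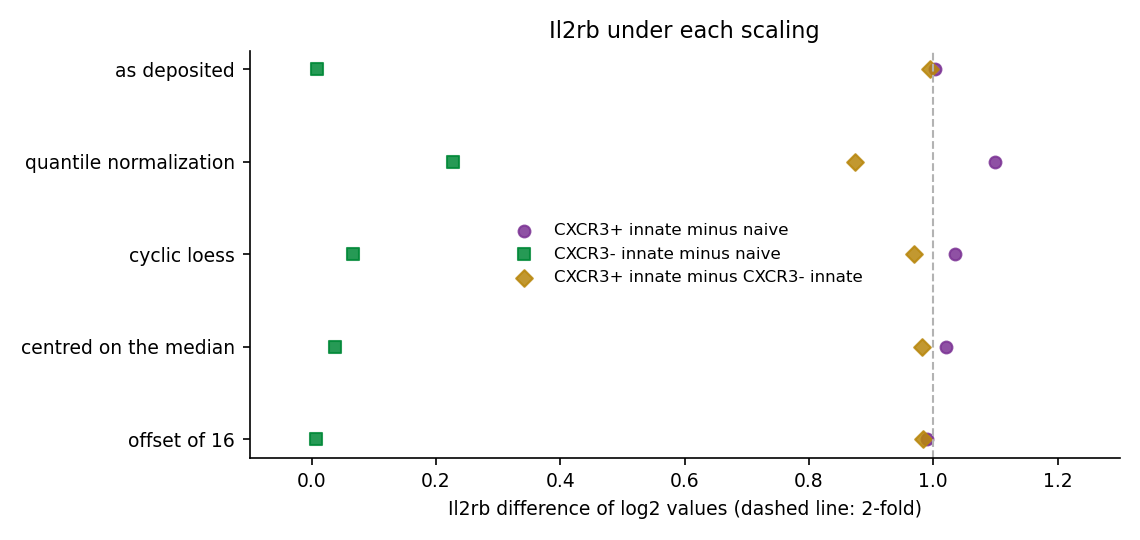
Difference of log2 values of Il2rb (x axis) in 3 comparisons under each scaling of the arrays (y axis), with the dashed line at 2-fold. For CXCR3+ innate minus naive the values span 0.991 to 1.10, and for CXCR3- innate minus naive quantile normalization gives 0.23, against 0.01 as deposited.

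Set beside the other genes called higher in the first comparison, Il2rb had the lowest difference in CXCR3- innate minus naive. The other 13 genes differed by 0.24 to 3.02 in that comparison, with a median of 0.57. Both comparisons with naive cells share the naive array. Tbx21, which encodes T-bet, a transcription factor known to act on Il2rb, read 8.68 on the CXCR3+ innate array, 7.98 on the CXCR3- innate array and 7.37 on the naive array. The Tbx21 values descended in steps, whereas the CXCR3- innate and naive values of Il2rb nearly coincided as deposited. Of all genes, at any level, 42.1% were exactly equal on these arrays, and Il2rb was not among them. Exact equality was rarer at high levels, with 1.71% of the 293 genes reaching at least 10 equal on all 3 arrays. After quantile normalization Il2rb differed by 0.23 in CXCR3- innate minus naive. Eomes, the related T-box factor that also acts on Il2rb, read 7.92, 7.77 and 7.06 in the same order, with both innate arrays above the naive one. Neither T-box gene had the arrangement of 1 high and 2 like values that Il2rb had as deposited.

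Natural killer cells also carry the beta chain, so their markers were read beside Il2rb. Of 10 such marker genes 3 had a value. Ncr1, a receptor of natural killer cells, read 7.19 on the CXCR3+ innate array, 7.43 on the CXCR3- innate array and 7.19 on the naive array, all below the array medians. Fcer1g, a signalling adaptor, read 7.07, 6.98 and 6.93 in the same order. Cd7, which T cells express too, read 10.30, 9.59 and 9.97. Fcer1g and Cd7 were thus highest on the CXCR3+ innate array and Ncr1 on the CXCR3- innate array. The summed linear level of these 3 genes was 1542 on the CXCR3+ innate array, 1072 on the CXCR3- innate array and 1274 on the naive array. Most of this sum came from Cd7 on every array, so it follows a gene that T cells express too. None of 9 B cell markers had a value. The summed linear level of the 2 measured of 7 CD4+ and regulatory T cell markers, Foxp3 and Ctla4, was 308, 380 and 340, and that of 6 measured of 15 myeloid and dendritic cell markers was 1164, 1247 and 1174. The part of other cells in the Il2rb values was not tested. Cxcr3, by which the innate populations are named, read 7.97, 7.82 and 7.57 in the same order, so the innate arrays differed by 0.15. All 9 CD8+ T cell markers were measured, with a summed linear level of 11144 on the CXCR3+ innate array, 10110 on the CXCR3- innate array and 13158 on the naive array.

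Il15ra, the alpha chain that binds interleukin-15, hardly differed. It read 7.62 on the CXCR3+ innate array, 7.56 on the CXCR3- innate array and 7.56 on the naive array. The CXCR3- innate and naive values were exactly equal, and the difference of CXCR3+ innate cells from each was 0.05. Of all genes, 39.6% differed by as much in either direction between CXCR3+ innate and naive cells. All Il15ra values lay below the array medians over genes of 7.63 to 7.65. Il2ra, Il2rg and the cytokine genes Il2 and Il15 have no value here.

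Jak1, the kinase bound to the beta chain, had a similar value everywhere. It read 11.02 on the CXCR3+ innate array, 10.96 on the CXCR3- innate array and 11.09 on the naive array. The naive array was the highest, and the CXCR3+ innate value differed from it by -0.08, the CXCR3- innate value by -0.13, and the innate values from each other by 0.05. Differences as large in either direction were found in 34.3%, 29.2% and 34.1% of all genes. After quantile normalization Jak1 changed sign in CXCR3- innate minus naive, at 0.03, and between the innate populations, at -0.09. Jak3 had no probe set with 1 gene symbol and was not used.

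Stat5a and Stat5b, which encode the pair of STAT5 proteins, were both lower in the innate populations than in naive cells, by less than 2-fold. Stat5b had the wider range. It read 8.51 on the CXCR3+ innate array, 8.68 on the CXCR3- innate array and 8.93 on the naive array, so the CXCR3+ innate array was the lowest and the naive array the highest. The difference was -0.42 for CXCR3+ innate minus naive, 1.34-fold, and 2.47% of all genes were at least as low. In CXCR3- innate cells the difference from naive cells was -0.25, where 12.4% were at least as low, and -0.17 between the innate populations, where 4.61% were.

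Stat5a read 8.64 on the CXCR3+ innate array, 8.65 on the CXCR3- innate array and 8.84 on the naive array. Both innate values were close together and below the naive one. The difference was -0.20 for CXCR3+ innate minus naive, with 11.3% of genes at least as low, and -0.18 for CXCR3- innate minus naive, with 17.2%. Between the innate populations it was -0.02. The 1675 genes with a mean value of at least 8.5, a limit set after the values were seen, had a median difference of -0.08, -0.16 and 0.01 in the same 3 comparisons. In CXCR3+ innate minus naive 309 of these genes were above 0 and 1076 below, and in CXCR3- innate minus naive 258 were above and 1198 below. A lower value in innate cells was thus common at this level. Both Stat5 genes lay below the median in both comparisons with naive cells. Stat5a in CXCR3- innate minus naive was closest to it and Stat5b in CXCR3+ innate minus naive furthest from it. After quantile normalization Stat5b differed by -0.33 and Stat5a by -0.12 in CXCR3+ innate minus naive, and by -0.11 and -0.05 in CXCR3- innate minus naive.

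**Figure D3:**
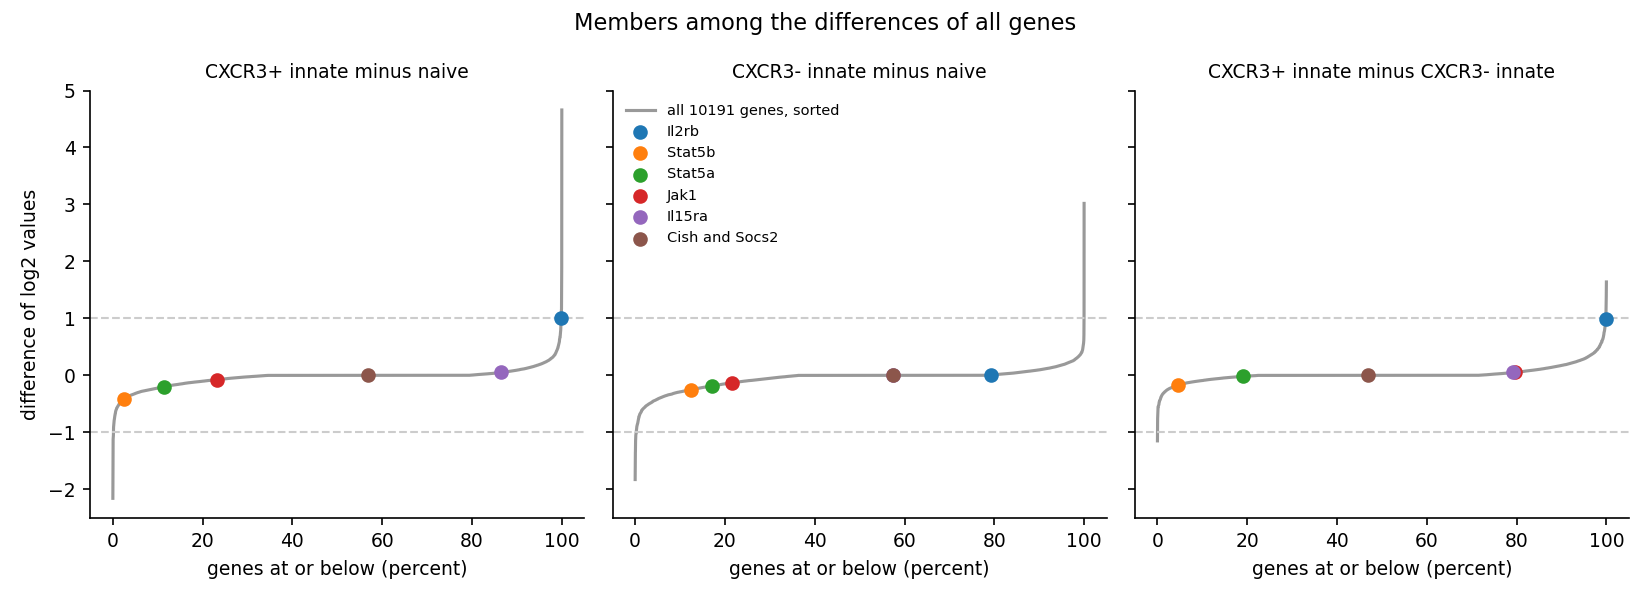
Difference of log2 values (y axis) against the percent of genes at or below it (x axis) for the 10191 genes in each comparison. Gray lines are all genes sorted by difference, dots are the 7 genes (equal values at the middle of their tie), and dashed lines mark 2-fold. Il2rb is at the upper end where CXCR3+ innate cells are compared, and Stat5b is the lowest dot in each panel.

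Stat5a and Stat5b are neighbours on mouse chromosome 11 and are transcribed from opposite strands. RefSeq windows of assembly GRCm38.p6, from 250 bases before to 50 after a start site, were read for 2 starts of each. They are shown because these closely related genes both had lower values in the innate populations. One window of each gene carried related sequence: an alignment over 104 columns was identical at 83 of them (79.8%), and the windows shared 3 exact runs of at least 10 bases. The longest run had 16 bases and occurs in 2 of 32851 windows of all genes, which are these. Capitals mark the shared runs in both windows, chr11:100860234-100860533 on the plus strand and chr11:100822521-100822820 on the minus strand.
Stat5a: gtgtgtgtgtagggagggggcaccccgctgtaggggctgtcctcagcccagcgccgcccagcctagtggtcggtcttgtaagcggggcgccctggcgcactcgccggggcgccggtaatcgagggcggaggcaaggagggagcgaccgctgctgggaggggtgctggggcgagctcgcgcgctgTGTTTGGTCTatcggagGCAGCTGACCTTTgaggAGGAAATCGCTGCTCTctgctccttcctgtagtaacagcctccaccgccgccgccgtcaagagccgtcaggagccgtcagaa
Stat5b: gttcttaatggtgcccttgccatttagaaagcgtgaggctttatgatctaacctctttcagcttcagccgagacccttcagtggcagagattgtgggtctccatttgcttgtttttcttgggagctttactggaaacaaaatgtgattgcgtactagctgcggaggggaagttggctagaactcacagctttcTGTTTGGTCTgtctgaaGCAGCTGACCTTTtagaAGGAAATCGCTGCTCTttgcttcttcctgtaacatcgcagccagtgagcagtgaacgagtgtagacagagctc
Of the other pairings of a Stat5a window with a Stat5b window, 1 shared a single run of 11 bases and the rest shared none of 10 or more. The probes of close relatives can respond to each other's transcripts. That was not tested for Stat5a and Stat5b because no probe sequences were used here.

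Cish and Socs2, the feedback genes, showed no measurable difference on these arrays. Cish encodes a suppressor that STAT5 is known to induce, and it read 7.01 on all 3 arrays. Socs2, a relative that restrains growth hormone and other STAT5 signals, read 7.11 on all 3. The values were identical to every deposited digit. Both lie near 7.00002, the lowest value that a probe set reached as its maximum, in the range where 52.2% of genes (those below 7.2) are equal throughout. Whether expression differed below what these values resolve was not tested.

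The Cish promoter holds the sequence that STAT5 is known to read, and is shown for that reason. The search used the letters TTCNNNGAA, which read alike on both strands, in the RefSeq window chr9:107296409-107296708 of GRCm38.p6 on the plus strand. It found 2 matches, in capitals, which do not overlap and are 2 bases apart.
Cish: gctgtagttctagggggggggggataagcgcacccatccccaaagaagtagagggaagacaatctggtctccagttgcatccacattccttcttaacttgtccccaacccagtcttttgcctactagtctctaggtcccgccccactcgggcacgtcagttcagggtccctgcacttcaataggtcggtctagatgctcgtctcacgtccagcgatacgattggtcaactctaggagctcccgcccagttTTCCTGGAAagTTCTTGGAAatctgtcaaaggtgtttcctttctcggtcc
They begin 0 and 11 bases after the annotated start. Of all 32851 windows 8.30% held a match and 0.457% held 2 or more. No match was found in the 7 windows of Il15ra, Jak1, Stat5a and Stat5b. The T-box letters GGTGTGA, or TCACACC on the other strand, occurred in 3.98% of all windows and, among the 8 windows of these 5 genes, in 1 window of Stat5a, at 60 bases before its start. Il2rb and Socs2 had no window in the sequences used here, so neither was searched for either set of letters. A match describes letters and does not show binding.

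The genes around the pathway were described by 11 lists with 159 genes, of which 111 had a value. Their median difference from naive cells was 0.00 for CXCR3+ innate and -0.03 for CXCR3- innate cells, and it was 0.03 between the innate populations, beside a median of 0.00 over all genes in each. Over these lists 7 genes were called higher and 0 lower in CXCR3+ innate minus naive, 1 higher and 0 lower in CXCR3- innate minus naive, and 2 higher and 0 lower between the innate populations. The 7 were Ly6c2, Klrc1, Xcl1, Il18rap, Tbx21, Bhlhe40 and Cd44. The lists were written with earlier results of these data known, so these counts are a description.

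Signalling genes just downstream of the receptor held no called gene. Of 11 kinase and adaptor genes 7 were measured, with medians of -0.02 and -0.08 for CXCR3+ and CXCR3- innate cells against naive cells and 0.00 between the innate populations. Sos1, which loads Ras with GTP, read 7.33 on the CXCR3+ innate array, 7.56 on the CXCR3- innate array and 7.81 on the naive array. Ptpn11, the phosphatase SHP-2, read 7.65, 7.64 and 7.96 in the same order, so its innate values were close together. Grb2, the adaptor, read 8.13, 7.97 and 8.15, and Jak2 read 8.41, 8.41 and 8.49.

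In the phosphoinositide 3-kinase, Akt and mTOR branch 20 of 26 genes were measured, none was called, and 11 were equal in CXCR3+ innate and naive cells. Medians were 0.00, -0.01 and 0.00 in the 3 comparisons. Pik3cd, the catalytic subunit p110 delta of lymphocytes, read 8.62 on the CXCR3+ innate array, 8.49 on the CXCR3- innate array and 9.01 on the naive array. Pik3ca, another catalytic subunit, read 8.21, 8.20 and 8.54, and Rictor, a subunit of the second mTOR complex, read 8.68, 8.79 and 9.03. In these the naive array was the highest. The adaptor gene Pik3ap1 went the other way at 8.42, 8.07 and 8.03.

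In the Ras and MAP kinase branch 13 of 20 genes were measured and none was called. The medians were -0.01, -0.13 and 0.09. Dusp5, an ERK phosphatase that interleukin-2 is known to induce, read 9.71 on the CXCR3+ innate array, 8.89 on the CXCR3- innate array and 9.04 on the naive array. It was highest in CXCR3+ innate cells, like Il2rb, with differences of 0.67, -0.15 and 0.82. Spry2, an inhibitor of Ras signalling, differed by 0.83, 0.41 and 0.42, and its highest value was below the array median. Dusp1, another MAP kinase phosphatase, read 9.47, 9.33 and 9.70, and Spred2 read 7.38, 7.38 and 7.72.

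Other inhibitors of JAK-STAT signalling held no called gene among 15 measured of 18, with medians of 0.00, -0.04 and 0.00. Pias1, an inhibitor of STAT DNA binding, read 9.30 on the CXCR3+ innate array, 9.14 on the CXCR3- innate array and 9.64 on the naive array. Ptpn6, the phosphatase SHP-1, read 9.15, 8.82 and 9.11, so its CXCR3- innate value was the low one. Socs3 read 8.33 on every array. Cbl, a ubiquitin ligase, read 8.93, 9.02 and 9.17, and Ptprc, the phosphatase CD45, read 11.28, 11.19 and 11.37. Of the other STAT genes 3 of 5 were measured and none was called, with medians of -0.15, -0.18 and 0.03. Stat4, which serves interleukin-12, had an arrangement like Il2rb at a smaller size, with 10.44 on the CXCR3+ innate array, 10.21 on the CXCR3- innate array and 10.20 on the naive array. Stat3 read 9.54, 9.50 and 9.68 and Stat6 read 8.89, 8.89 and 9.07, both highest in naive cells as Stat5a and Stat5b were.

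**Figure D4:**
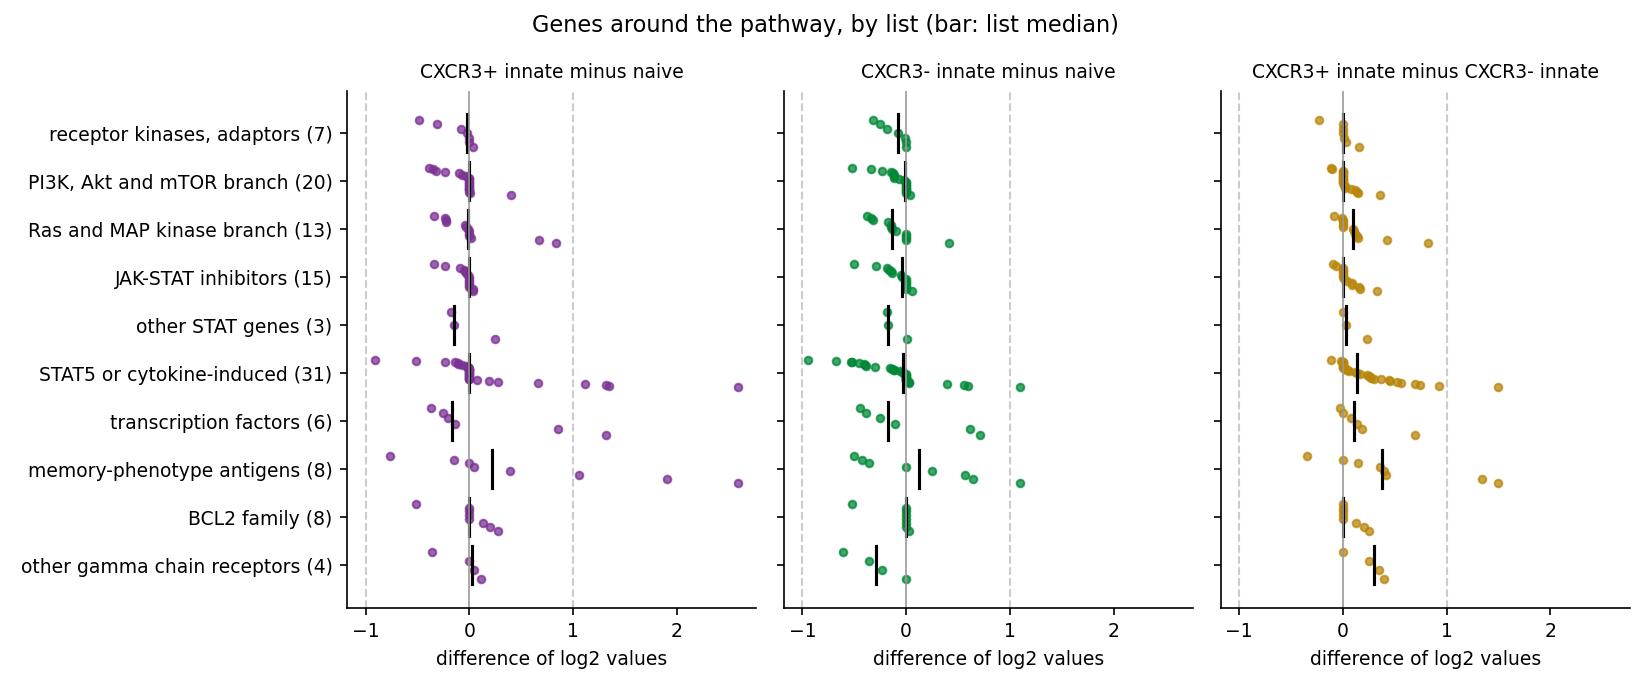
Differences of log2 values (x axis) of the measured genes in 10 lists around the pathway (y axis, number of genes in brackets), with 1 panel per comparison. Each dot is a gene, black bars are list medians, and dashed lines mark 2-fold. Most genes lie near 0, and the dots beyond 1 belong to the cytokine-induced, transcription factor and memory-phenotype lists.

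Genes known to be induced through STAT5 or by these cytokines were mostly higher in CXCR3+ innate than in CXCR3- innate cells and had medians near 0 against naive cells. Of 31 measured of 40, 4 were called higher and 0 lower in CXCR3+ innate minus naive, and the median was 0.00, with 8 above 0, 13 equal and 10 below. In CXCR3- innate minus naive 1 was called higher, and the median was -0.03, with 6 above 0, 9 equal and 16 below, and a median of 0.01 after quantile normalization. Between the innate populations 1 was called higher, the median was 0.14, and 21 were above 0, 8 equal and 2 below. Among all genes 2921 were above 0, 4998 equal and 2272 below. Of the 1675 genes with a mean value of at least 8.5, 872 were above 0 and 444 below in this comparison. Of the 9 CD8+ T cell markers 7 were above 0, so a higher value in CXCR3+ innate cells was not particular to this list. The called genes were Ly6c2, a memory-phenotype antigen, the chemokine gene Xcl1, the interleukin-18 receptor chain gene Il18rap and the transcription factor gene Bhlhe40. Ly6c2 was called in all 3 comparisons, at 11.87 on the CXCR3+ innate array, 10.38 on the CXCR3- innate array and 9.28 on the naive array. Xcl1 read 8.92, 8.18 and 7.58 and Il18rap 8.20, 7.28 and 6.88 in that order, and Bhlhe40 read 7.93, 7.36 and 6.81. These 4 had stepwise patterns, unlike that of Il2rb. Il18r1 and Bcl2, in the same list and not called, had an arrangement more like that of Il2rb. Their differences in the 3 comparisons were 0.66, -0.03 and 0.69 for Il18r1 and 0.27, 0.02 and 0.25 for Bcl2. The lowest differences from naive cells in this list were those of Id2, at -0.91 in CXCR3+ innate and -0.95 in CXCR3- innate cells. Ccnd2 differed from naive cells by -0.23 and -0.67 in that order.

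The BCL2 family list, which mixes survival and pro-apoptotic genes, had 8 of 16 members measured, none called and medians of 0.00 in each comparison. Bcl2, the survival gene that interleukin-15 is known to sustain, read 8.86 on the CXCR3+ innate array, 8.61 on the CXCR3- innate array and 8.59 on the naive array. Bcl2l11, its pro-apoptotic counterpart BIM, read 8.79, 8.59 and 8.59, and Bcl2a1a read 7.95, 7.82 and 7.82. In each of the 3 the CXCR3+ innate array was the highest, at differences of 0.27, 0.20 and 0.13 from naive cells, which were smaller than that of Il2rb. Their CXCR3- innate and naive values were close for Bcl2 and exactly equal for Bcl2l11 and Bcl2a1a. Of all genes 42.1% were exactly equal on these arrays, and an equal value does not show equal expression. Mcl1, another survival gene, read 8.33 in both innate populations and 8.85 in naive cells.

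Transcription factors known to act at Il2rb or in memory-phenotype cells had 6 of 9 measured, with medians of -0.17, -0.18 and 0.11. Tbx21 was called higher in CXCR3+ innate minus naive and no gene was called in the other comparisons. Elf1, an ETS factor, read 10.11 on the CXCR3+ innate array, 10.03 on the CXCR3- innate array and 10.48 on the naive array, and Runx3, a factor of the CD8+ lineage, read 8.61, 8.42 and 8.81. Memory-phenotype surface antigens had 8 of 11 measured, with medians of 0.22, 0.12 and 0.38. Called higher were 3, 1 and 2 genes in the 3 comparisons. Klrc1, encoding the receptor NKG2A, read 9.03, 7.69 and 7.12, and Cd44, which the sort used, read 8.30, 7.88 and 7.24. Itga4, an integrin chain, read 8.78, 9.12 and 9.55 and was lowest in CXCR3+ innate cells.

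The other receptor genes that pair with the common gamma chain did not show the Il2rb arrangement. All 4 were measured and none was called. Il7r, the interleukin-7 receptor, read 11.25 on the CXCR3+ innate array, 10.85 on the CXCR3- innate array and 11.21 on the naive array, and Il4ra read 9.97, 9.62 and 9.86. In both the CXCR3- innate array was the low one. Il21r read 9.43, 9.18 and 9.79, and Il9r read 7.77 on all 3 arrays.

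The genes with patterns most like Il2rb were found by the root mean square difference between log2 values, each gene centred on its mean over the 3 arrays. Considered were 4596 genes that reached the median of the array on which they were highest, without predicted genes, small RNAs, and olfactory, vomeronasal and antigen receptor genes. This measure was 0.04 for Rnf138, a ubiquitin ligase gene, and for Ctla2a, a cysteine protease inhibitor gene, and 0.06 for Gnptab, a Golgi enzyme gene. Next came Lgals1, encoding galectin-1, at 0.10, Nod1, a sensor of bacterial cell walls, at 0.11, Myo1f, a myosin, at 0.12, and Dusp5 and the inhibitory receptor gene Lilrb4a, both at 0.14. Il18r1, a chain of the interleukin-18 receptor, at 0.15 and the death ligand gene Fasl at 0.16 followed. Lgals1 read 9.17 on the CXCR3+ innate array, 8.38 on the CXCR3- innate array and 8.37 on the naive array, a difference of 0.79 from naive cells. Of the 10 genes only Lilrb4a was called, in CXCR3+ innate minus naive, at 1.04. On both other arrays 5 of the 10 were below the array median, and 3 had equal values there. With 3 arrays many genes can look alike, so the measure is a description.

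**Figure D5:**
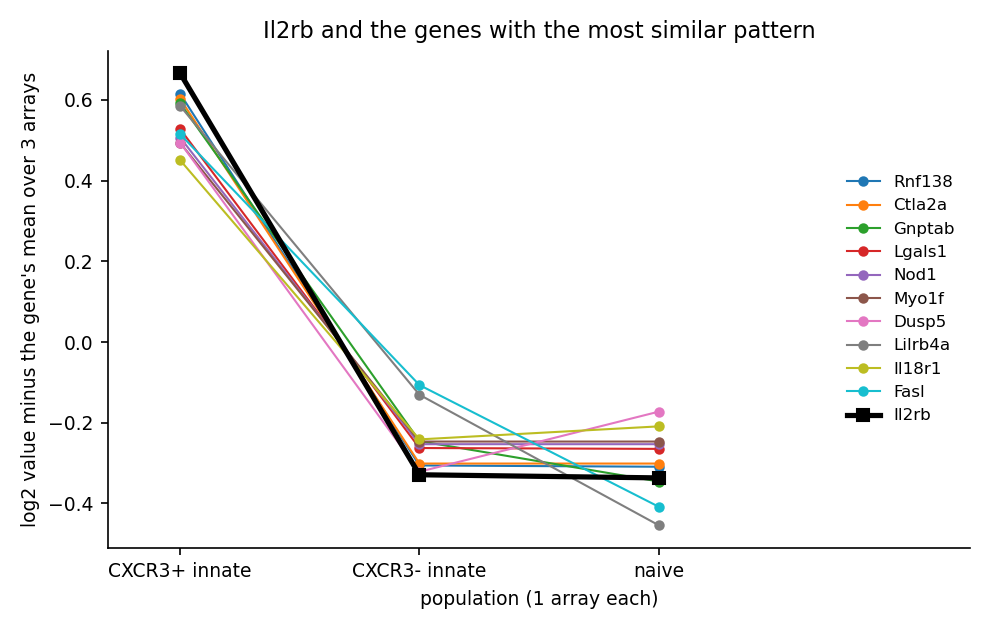
Log2 value minus the gene's own mean over the 3 arrays (y axis) in each population (x axis, 1 array each), for Il2rb (black squares) and the 10 genes with the most similar pattern. All 11 lines are highest in CXCR3+ innate cells, by the choice of genes, and 3 of the 10 have equal values in CXCR3- innate and naive cells.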

How the data were processed

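RNA of 3 sorted CD8+ T cell populations was measured on 1 Affymetrix array each. The authors deposited log2 values. The submitters' processing notes name RMA and Affymetrix Expression Console, and version and genome build are not given in the sources used here. RMA in general subtracts background, equalises array distributions and summarises probes. The deposited arrays still differed in their median over probe sets, at 7.70 for CXCR3+ innate, 7.68 for CXCR3- innate and 7.71 for naive cells. The step that made values exactly equal across arrays is not stated in the sources used here. RMA compresses differences of dim probe sets. Every probe set in the table of 12417 had a value of at least 7.00002 on some array. The platform annotation gave 10576 probe sets 1 symbol, 1108 several and 733 none. Only the first were used, and for 273 genes more than 1 probe set was averaged on the log2 scale. The number of arrays limits the precision.

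Groups followed the sample titles. The size rule, the 3 comparisons and the lists are given with the results, and no test was run. Up to 4 genes per list with the largest difference, called genes, and 10 genes most like Il2rb were named. Socs3, Il9r, Cxcr3, Id2, Ccnd2 and the marker genes were named besides, after their values were seen. Members and lists were chosen with earlier results of these data known. Sequences and symbols came from RefSeq (GRCm38.p6). Simulated data were used to test the code of the size rule. Alternatives were other filters, thresholds, scalings and probe set choices. Scaling used limma 3.58.1 under R 4.3.3, the promoter alignment Biopython 1.88, and all else pandas 2.3.3 under Python 3.11.15.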

Additional observations from a re-analysis of the deposited data

How the results depend on the processing

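Of 9 alternatives, 4 rescale the values and so could move a member's difference, and the rest could change only whether it was called. Under these 4, Il2rb in CXCR3+ innate minus naive was 0.991 to 1.10 and was called in 3. It was not called with an offset of 16 (0.991; 0 members called), nor at a threshold of 3-fold (1.003; 0 members called). Between the innate populations it ranged from 0.873 after quantile normalization to 0.995, and was called only at a threshold of 1.5-fold (0.995; 1 member called). For CXCR3- innate minus naive it was 0.23 after quantile normalization. The call depends on the threshold because the value lies next to it. Of 72 values of the other 6 members under these 4, 2 had the opposite sign, both of Jak1 after quantile normalization, and 4 moved by over 0.1. None was called.

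Over all genes, a threshold of 1.5-fold called 51 higher and 71 lower in CXCR3+ innate minus naive, 10 and 163 in CXCR3- innate minus naive, and 102 and 8 between the innate populations. A threshold of 3-fold called 3 and 2, 1 and 3, and 2 and 0. In CXCR3- innate minus naive quantile normalization called 2 higher and 9 lower, against 2 and 23 as deposited. The share of calls that were higher was 18.2% against 8.0%, which comes from the lower calls alone. There the offset called 15 lower. The cause was not tested for these scalings. Of 150 list medians under the 4 rescalings and the other probe set choice, 13 had the opposite sign and 5 moved by over 0.1. Each member has 1 probe set, so reading probe sets by themselves gave nothing further. No paired analysis was possible because each population has 1 array. Cish and Socs2 are limited by values that are identical on all 3 arrays, which do not show equal expression.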
